A study of Mus musculus with 8 samples.

Results

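RNA sequencing of whole hearts compared 4 mice labelled as cardiomyocyte knockouts of Elmsan1 with 2 mice that carry only the Cre transgene, 6 of the 8 hearts in the series and all genes of the count table. The knockout hearts (cKO, n = 4) had the genotype Elmsan1 fl/fl;aMHC-Cre+/- and the Cre hearts (n = 2) the genotype aMHC-Cre+/-. Both groups therefore carry the transgene, whose αMHC (Myh6) promoter is active in cardiomyocytes, and they differ by the floxed locus. The 2 floxed hearts of the series (Elmsan1 fl/fl, no transgene) entered the fit through the filter on low counts, the scaling and the shared estimate of spread. They are given where they bear on a result. All mice were 8-week-old males, and total RNA came from TRIzol extracts. Only 2 Cre hearts were analysed, so every value below rests on 2 controls. The labels do not name which exons are floxed, nor whether the hearts came from littermates. Since the samples are whole hearts, fewer cells of a type and less RNA per cell cannot be told apart where a level is lower.

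Elmsan1, also named Mideas, encodes the scaffold of MiDAC, a nuclear complex in which the deacetylases HDAC1 and HDAC2 and the DNA-binding protein DNTTIP1 remove acetyl groups from histone tails. Deacetylation at promoters and enhancers is in general linked to lower transcription. The adult heart beats on ATP made almost wholly in mitochondria, mainly from fatty acids, and each beat depends on calcium released from and pumped back into the sarcoplasmic reticulum. The gene groups below follow these functions.

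Elmsan1 (ENSMUSG00000042507, GRCm38 chr12:84149176-84218881, minus strand, protein-coding) was measured at 15.2, 15.5, 15.3 and 11.996 CPM in cKO and 28.6 and 25.3 CPM in Cre. Each cKO heart was below both Cre hearts, and cKO replicate 4 was the lowest. The transcript fell by 0.90 on the log2 scale (SE 0.13, adjusted p = 0.000437, from the quasi-likelihood test of edgeR, Benjamini-Hochberg adjusted over all genes tested, as throughout). CPM are library-scaled counts with TMM factors, and a gene is said to rise or fall where the adjusted p is under 0.05. The value counts the whole gene in all cell types of the heart, in only 1 of which the transgene is active, so the level that remains in cardiomyocytes was not measured.

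Of 15289 genes tested, 6484 (42.4%) were called, 2997 (19.6%) higher and 3487 (22.8%) lower in cKO than in Cre. The counts depended on the small control group: without Cre replicate 1 there were 1801 rises and 2608 falls, and without Cre replicate 2 there were 1460 and 2469. With library size alone as the scale 3474 genes rose and 2588 fell, so that 57.3% of called genes were higher in place of 46.2%, and the median of all genes moved by 0.11 on the log2 scale. An absolute log2 fold change of at least 1 was reached by 969 rises (6.34%) and 855 falls (5.59%). All 4 cKO hearts lay above both Cre hearts for 28.2% of genes and below both for 29.3%. By contrast, 15 genes (0.0981%) were called between the Cre and the floxed hearts. Among 13253 genes of at least 1 CPM the median absolute log2 difference was 0.16 between the 2 Cre hearts, 0.16 to 0.26 between pairs of cKO hearts and 0.42 between the group means.

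Library totals ranged from 17509564 to 25833259 estimated counts. The mitochondrial share was 22.1%, 29.3%, 22.4% and 22.6% in cKO and 26.9% and 29.1% in Cre, so that all cKO hearts but replicate 2 lay below both Cre hearts. For totals and for this share an exact permutation test, two-sided, over the 15 splits of the hearts gave p = 0.4 each, but the smallest p this design allows is 0.133, so it could not have called a difference. On the first principal component of the 6 libraries (55.2% of the variance), cKO hearts lay at -57.5 to -1.07 and Cre hearts at 55.5 and 70.0, with cKO replicate 1 nearest to the Cre hearts. Cre replicate 1 held the T cell transcript Cd4 at 6.72 CPM against at most 1.11 CPM in the other 5 hearts, and 52 counts of Cd3g against 3 to 8, and the fall of Cd4 was lost without that heart (log2 -0.14, adjusted p = 0.853). The airway transcript Scgb1a1 stood at 41.8 and 46.9 CPM in cKO replicates 3 and 4 and at most 0.0526 CPM in the other 4. The same cKO hearts held the most adipocyte transcript, with summed levels of 318 and 336 CPM over the marker list against 64.3 to 139.6 CPM elsewhere among the 6. Without cKO replicate 3 there were 2718 rises and 3178 falls, and without cKO replicate 4 there were 2804 and 3332. Myh6, the cardiomyocyte marker whose promoter drives Cre, was at 22099.9, 21952, 21674 and 16698 CPM in cKO and 22904 and 24105 CPM in Cre, so each library is rich in cardiomyocyte RNA.

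The difference between the groups followed transcript length. Coding genes whose longest transcript is under 1000 bp had a median log2 fold change of 0.79 and 65.5% of them rose, while those of 8000 bp and over had a median of -0.44 and 46.4% fell. The 3 classes between had medians of 0.40, 0.04 and -0.21. Spearman's rho between length and log2 fold change across genes, which are not independent replicates, was -0.40, and each cKO heart set against the Cre mean gave between -0.42 and -0.33. The floxed hearts set against the Cre mean gave -0.01 and -0.06. A per-library offset for length and GC content brought the class medians to between 0.01 and 0.17 and left 2455 rises (16.1%) and 2864 falls (18.7%). Of the 6484 calls 4185 were kept in the same direction (64.5%) and 8 were made in the opposite one. The offset does not separate length from function: the longest transcripts of the ribosomal protein genes described below have a median of 1124 bp and those of the calcium handling genes one of 4514 bp. Values with the offset stand beside each called gene described whose log2 fold change it moved by over 1.5 times, and beside each gene whose call it changed.

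**Figure D1:**
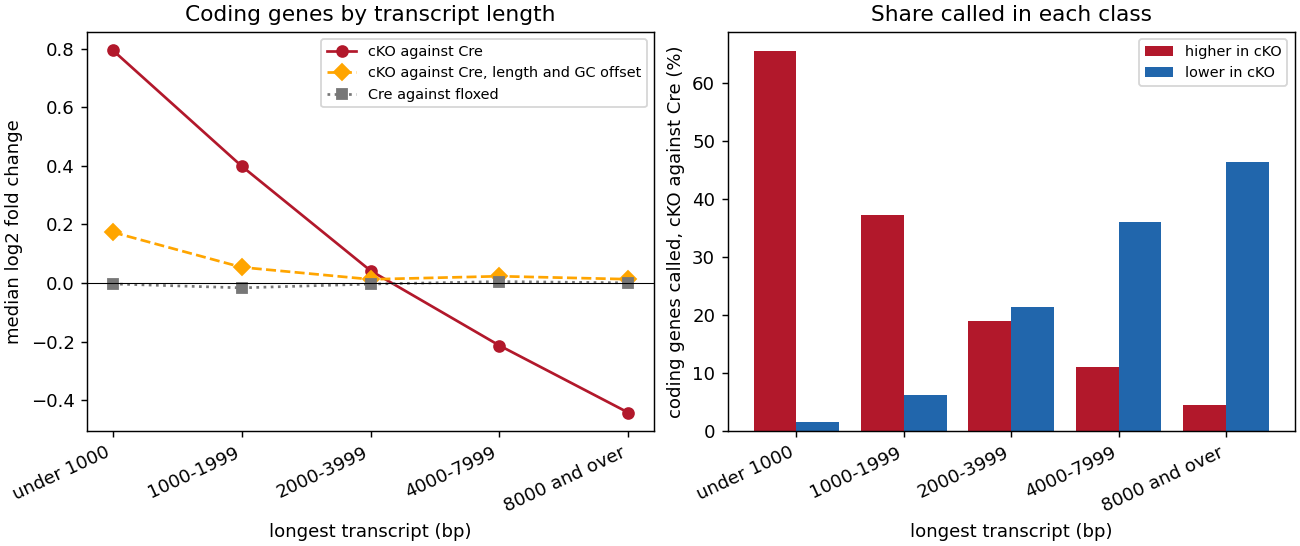
Coding genes in 5 classes of longest transcript length. Left, median log2 fold change of cKO against Cre as fitted, the same with the length and GC offset, and Cre against floxed; right, the percentage of genes in each class called higher or lower in cKO. The uncorrected medians go from 0.79 to -0.44 with length, while those of Cre against floxed stay near 0.

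Of the 3 other complex members tested, Hdac2 passed the test. Hdac2, a catalytic subunit, was at 34.9, 30.7, 31.7 and 30.01 CPM in cKO and 49.6 and 50.1 CPM in Cre. It was lower in all 4 cKO hearts (log2 fold change -0.65, SE 0.10, adjusted p = 0.000581). Its paralog Hdac1 (20.5, 21.4, 19.2 and 24.6 CPM in cKO and 20.7 and 20.1 CPM in Cre) and Dnttip1 (17.6, 18.4, 22.9 and 20.4 CPM in cKO and 17.5 and 18.4 CPM in Cre) did not pass the test, with log2 fold changes of 0.07 (SE 0.12) and 0.15 (SE 0.13). Zfp541, the germ cell relative of Elmsan1, had 3 counts in cKO replicate 3 and 0 in the other 7 libraries and was not tested. Among 32 further deacetylase and corepressor genes 4 rose and 9 fell (5 and 5 with the offset), close to the share among all genes. Ncor1, the scaffold of the HDAC3 corepressor complex, fell from 103 and 122 CPM in Cre to 63.1, 59.6, 57.9 and 49.3 CPM in cKO (log2 fold change -0.97, SE 0.12, adjusted p = 0.000233, -0.48 with the offset). Rcor1, the scaffold of the LSD1 complex, fell by 0.76 and Tbl1x by 0.70 on the log2 scale (-0.42 and -0.36 with the offset). Sin3b, a scaffold of the SIN3 deacetylase complex, rose by 0.67.

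The 12 largest falls included a nucleotidase, a calcium exchanger, a regulator of pyruvate use and a docking protein of the insulin receptor. Nt5c1a, a cytosolic nucleotidase that makes adenosine from AMP, was at 0.316, 0.296, 0.728 and 0.0762 CPM in cKO and 10.7 and 9.52 CPM in Cre. It had the steepest named fall (log2 fold change -4.83, SE 0.39, adjusted p = 9.96e-05), and no cKO heart reached 1 CPM. Slc8a1, the sodium-calcium exchanger that removes calcium from the cell, was at 17.3, 10.3, 13.1 and 7.16 CPM in cKO and 120.3 and 140.1 CPM in Cre (log2 fold change -3.45, SE 0.27, adjusted p = 0.000118). Pdpr, the regulatory subunit of pyruvate dehydrogenase phosphatase, was at 14.9, 5.34, 8.26 and 3.12 CPM in cKO and 75.1 and 91.9 CPM in Cre (log2 fold change -3.42, SE 0.51, adjusted p = 0.00267). In both genes the lowest cKO value was that of replicate 4 and the highest that of replicate 1. Hipk2, a nuclear kinase, fell by 3.19 and Gpam, which starts triglyceride synthesis, by 2.90 on the log2 scale. Irs1, the docking protein of the insulin receptor, was at 5.37, 4.002, 6.04 and 2.09 CPM in cKO and 22.1 and 35.5 CPM in Cre (log2 fold change -2.72, SE 0.35, adjusted p = 0.000663). Also among the 12 largest falls were Serinc4 (-4.48), Pm20d2 (-3.65), Uprt (-2.85), Pakap (-3.46), whose locus overlaps other genes, and Srp54a (-3.65). Srp54a has near-identical copies among which reads may be split, cKO replicates 2 and 4 were at 0, and its call was lost without Cre replicate 1 (adjusted p = 0.149) or Cre replicate 2 (adjusted p = 0.143), and without each other heart save cKO replicate 3 (adjusted p from 0.0526 to 0.0944), and with the offset (adjusted p = 0.0687).

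The 12 largest rises included a metallothionein, an enzyme of creatine synthesis and an iron hormone. Mt3, a metal-binding metallothionein, was at 10.6, 14.6, 13.2 and 8.57 CPM in cKO and 2.47 and 1.203 CPM in Cre (log2 fold change 2.65, SE 0.33, adjusted p = 0.00027, 1.59 with the offset). Gamt, which completes creatine synthesis, was at 17.3, 19.5, 16.6 and 9.33 CPM in cKO and 3.87 and 2.76 CPM in Cre (log2 fold change 2.22, SE 0.30, adjusted p = 0.000408). Hamp, which encodes the iron hormone hepcidin, was at 15.04, 28.9, 27.1 and 19.7 CPM in cKO and 5.999 and 1.603 CPM in Cre. Non-overlap of the groups was a condition for this ranking, and over all genes 28.2% lay above both Cre hearts in all 4 cKO hearts. The Cre hearts differed from each other in Hamp, whose log2 fold change was 2.54 (SE 0.52) and 3.82 without Cre replicate 1. The lens filament gene Bfsp2 rose by 2.62, Xntrpc by 2.59 and the vesicular nucleotide transporter Slc17a9 by 2.26 on the log2 scale. Another 5 of the 12 largest rises were lost when a Cre heart was left out. Gsta1 (2.80), a glutathione transferase, had an adjusted p of 0.163 without Cre replicate 1 and 0.11 without Cre replicate 2, and Sap25 (2.61) of 0.149 and 0.0665. Tmem273 (2.32) and the calcium buffer gene Pvalb (2.21) had adjusted p values of 0.113 and 0.0767 without Cre replicate 2, and Insl3 (2.44) one of 0.0522 without Cre replicate 1. Insl3 was also lost without cKO replicate 2, 3 or 4 or either floxed heart (adjusted p from 0.069 to 0.0844), and 1 Cre heart was at 0. With the offset Gsta1, Sap25 and Insl3 were not called (log2 2.51, 1.91 and 1.40, adjusted p = 0.0549, 0.0557 and 0.219).

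**Figure D2:**
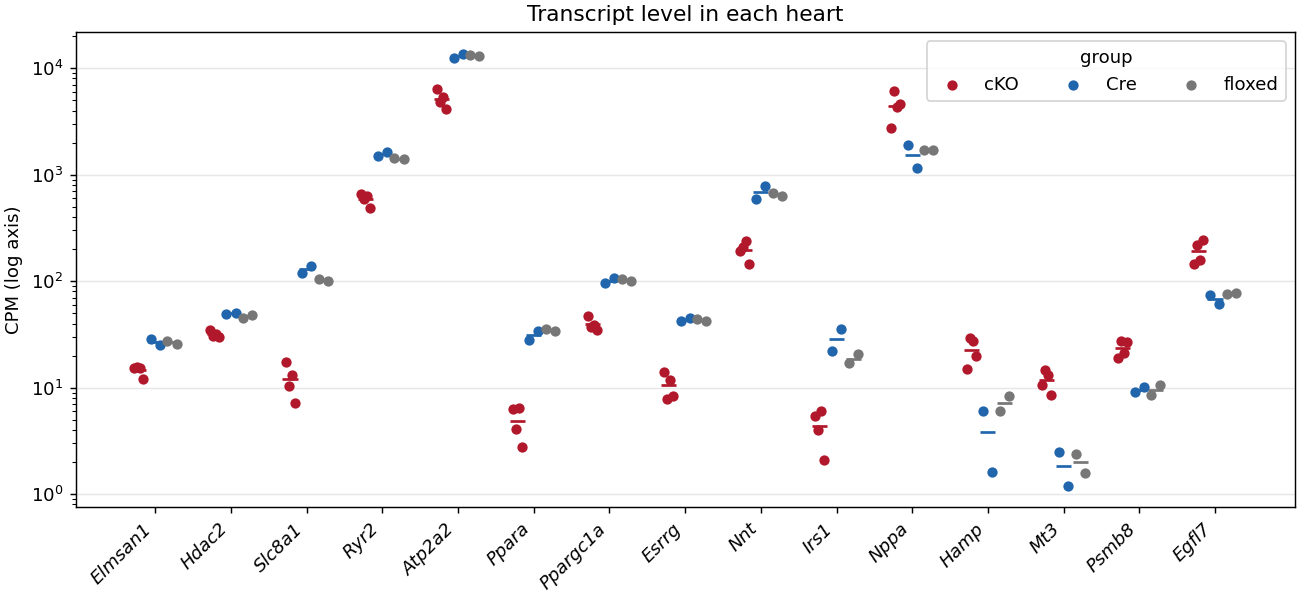
Transcript level of 15 genes in each heart (CPM, log axis), with a point per heart and a line at each group mean. In Slc8a1, Ppara and Irs1 every cKO heart lies below every Cre and floxed heart, and in Mt3, Psmb8 and Egfl7 every cKO heart lies above them.

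Genes of fuel oxidation fell together. Of 23 genes of the citric acid cycle and pyruvate dehydrogenase, which feeds it, 18 fell and none rose (median -0.84 on the log2 scale, and -0.81 with the offset). Pdha1, the catalytic subunit of pyruvate dehydrogenase, was at 476, 344, 475 and 365 CPM in cKO and 987 and 1064 CPM in Cre (log2 fold change -1.31, SE 0.14, adjusted p = 0.000163). Ogdh, the oxoglutarate dehydrogenase, was at 984, 760.0, 988 and 788 CPM in cKO and 1834 and 1949 CPM in Cre, and Sdha, which belongs to both the cycle and complex II, at 703, 468, 679 and 557 CPM in cKO and 1397 and 1473 CPM in Cre. In each of these genes cKO replicates 2 and 4 were the lowest, and no cKO heart came near the Cre range. Dld fell by 1.15 and Cs, citrate synthase, by 0.97 on the log2 scale. Mdh2 (-0.01) and Idh2 (-0.01) did not pass the test. Pdk4, the kinase that shuts off pyruvate dehydrogenase, ranged from 70.4 to 238 CPM in cKO and was not called (log2 fold change -1.03, SE 0.49, adjusted p = 0.138). It was called without cKO replicate 3, its highest heart (log2 -1.49, adjusted p = 0.00344), and by limma voom (log2 -1.15, adjusted p = 0.0395). A block for the replicate number of the titles also called it (log2 -1.58, adjusted p = 0.00808), as did block and offset together (log2 -1.39, adjusted p = 0.00971).

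Of 31 genes of fatty acid oxidation and its regulators 18 fell and 2 rose (median -0.45). Ppara, the fatty acid-sensing nuclear receptor, was at 6.26, 4.05, 6.46 and 2.74 CPM in cKO and 28.02 and 34.3 CPM in Cre (log2 fold change -2.68, SE 0.27, adjusted p = 0.000197). Esrrg, the orphan receptor that drives oxidative genes, was at 13.99, 7.81, 11.8 and 8.38 CPM in cKO and 41.95 and 44.6 CPM in Cre (log2 fold change -2.05, SE 0.19, adjusted p = 0.000117). Ppargc1a, the coactivator of both, was at 47.2, 37.1, 38.6 and 34.7 CPM in cKO and 95.8 and 106 CPM in Cre (log2 fold change -1.36, SE 0.12, adjusted p = 9.97e-05, -0.90 with the offset). The groups were far apart in all 3, and the floxed hearts (35.7 and 34.1, 44.2 and 42.5 and 104 and 99.7 CPM) lay beside the Cre hearts. Among the enzymes, Acadm, the medium-chain dehydrogenase, fell by 1.38, Etfdh by 1.33, Acsl1 by 1.31 and Hadha by 1.04 on the log2 scale, whereas Cpt1b, the muscle gate for fatty acid entry, did not pass the test (-0.22, SE 0.11), but was called lower with the offset (-0.35, adjusted p = 0.0257). The 2 that rose, Etfb and Acot13, had log2 fold changes of 0.82 and 0.51, which the offset took to 0.13 and 0.03, and Acot13 was also lost without Cre replicate 1 (log2 0.40, adjusted p = 0.0553). The list for branched-chain amino acids and ketones had a median of -0.99 (-0.68 with the offset), with 15 falls among 20 genes and no rise. Aldh6a1, of valine breakdown, was at 81.7, 67.7, 74.8 and 57.8 CPM in cKO and 200.3 and 219 CPM in Cre (log2 fold change -1.57, SE 0.13, adjusted p = 9.96e-05). Dbt, a subunit of the branched-chain ketoacid dehydrogenase, fell by 1.35, its phosphatase Ppm1k by 1.45, Mut by 1.81 and Oxct1, which starts ketone use, by 1.17 on the log2 scale.

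Of 28 glycolysis and glycogen genes 10 fell and 1 rose (14 and 1 with the offset). Hk2, a hexokinase, was at 159, 128, 121 and 94.3 CPM in cKO and 300.3 and 345 CPM in Cre (log2 fold change -1.36, SE 0.17, adjusted p = 0.000219), and Gys1, glycogen synthase, at 53.8, 52.8, 63.4 and 52.2 CPM in cKO and 105 and 122 CPM in Cre (log2 fold change -1.03, SE 0.11, adjusted p = 0.000148). Both were lower in every cKO heart, while the later enzymes Tpi1 (-0.01), Pkm (-0.03) and Pgk1 (-0.25) did not pass the test. With the offset these 3 were called lower (log2 -0.34, -0.36 and -0.37, adjusted p = 0.0167, 0.0162 and 0.0194). Pgam2, the muscle phosphoglycerate mutase, was the gene that rose (1.02, 0.31 with the offset). Among 24 genes of mitochondrial dynamics and upkeep 15 fell and 2 rose (15 and none with the offset). The fusion genes Opa1 (87.9, 64.2, 87.9 and 61.5 CPM in cKO and 187 and 215 CPM in Cre) and Mfn2 (391, 334, 406 and 372 CPM in cKO and 817 and 780.2 CPM in Cre) fell by 1.42 and 1.09 on the log2 scale. Nnt, which makes mitochondrial NADPH, was at 193, 210.1, 239.8 and 144 CPM in cKO and 585 and 784 CPM in Cre (log2 fold change -1.80, SE 0.18, adjusted p = 0.000123), with the floxed hearts at 677 and 628 CPM.

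Respiratory chain genes moved in both directions. Of 36 nuclear complex I genes 29 rose and 1 fell, and of 37 genes of complexes II to V 26 rose and 4 fell. The lists had median log2 fold changes of 0.72 and 0.60. With the offset there were 19 rises and 3 falls (median 0.31) and 13 rises and 6 falls (median 0.10), and without Cre replicate 1 complexes II to V had 16 rises. Ndufs1, the largest complex I subunit, was at 301, 212, 275 and 225 CPM in cKO and 601 and 638 CPM in Cre (log2 fold change -1.29, SE 0.14, adjusted p = 0.000148). Sdha, Uqcrc2 and Atp5a1 fell by 1.25, 0.74 and 0.49, the last without a call when Cre replicate 2 was left out (log2 -0.49, adjusted p = 0.0538). Among the rises, Ndufb7 was at 383, 545, 490.4 and 596 CPM in cKO and 198 and 212 CPM in Cre (log2 fold change 1.3, SE 0.17, adjusted p = 0.000263, 1.3 with the offset). Uqcrq, of complex III, was at 905, 1277, 1051 and 1382 CPM in cKO and 424 and 460.1 CPM in Cre (log2 fold change 1.39, SE 0.17, adjusted p = 0.000223, 1.19 with the offset). Atp5e, of the ATP synthase, rose by 1.29 (1.15 with the offset).

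All 40 cytosolic ribosomal protein genes tested rose (median 0.92), and 32 of them with the offset (median 0.51). Rpl32, of the large subunit, was at 232, 322, 274 and 315 CPM in cKO and 118 and 126 CPM in Cre (log2 fold change 1.23, SE 0.14, adjusted p = 0.000193, 0.77 with the offset). Rps21, of the small subunit, was at 234, 235, 253 and 308 CPM in cKO and 116 and 98.1 CPM in Cre (log2 fold change 1.27, SE 0.14, adjusted p = 0.000168, 0.64 with the offset). Their longest transcripts have a median of 1124 bp over the list, and ribosomal protein genes have many processed pseudogenes among which reads may be split. Of the 13 protein-coding transcripts of the mitochondrial genome 5 fell and 1 rose (7 and none with the offset). The falls, led by mt-Atp8 (-1.46), mt-Nd4l (-1.38) and mt-Nd5 (-1.08), each lost their call without Cre replicate 2 (adjusted p = 0.0771, 0.0959 and 0.0693), and mt-Atp8 also without Cre replicate 1 (adjusted p = 0.0512). The falls numbered 3 without Cre replicate 1, 0 without Cre replicate 2 and 8 without cKO replicate 2. mt-Nd3, which rose (1.01), was lost without either Cre heart (adjusted p = 0.0726 and 0.079) and with the offset (log2 0.54, adjusted p = 0.0564).

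**Figure D3:**
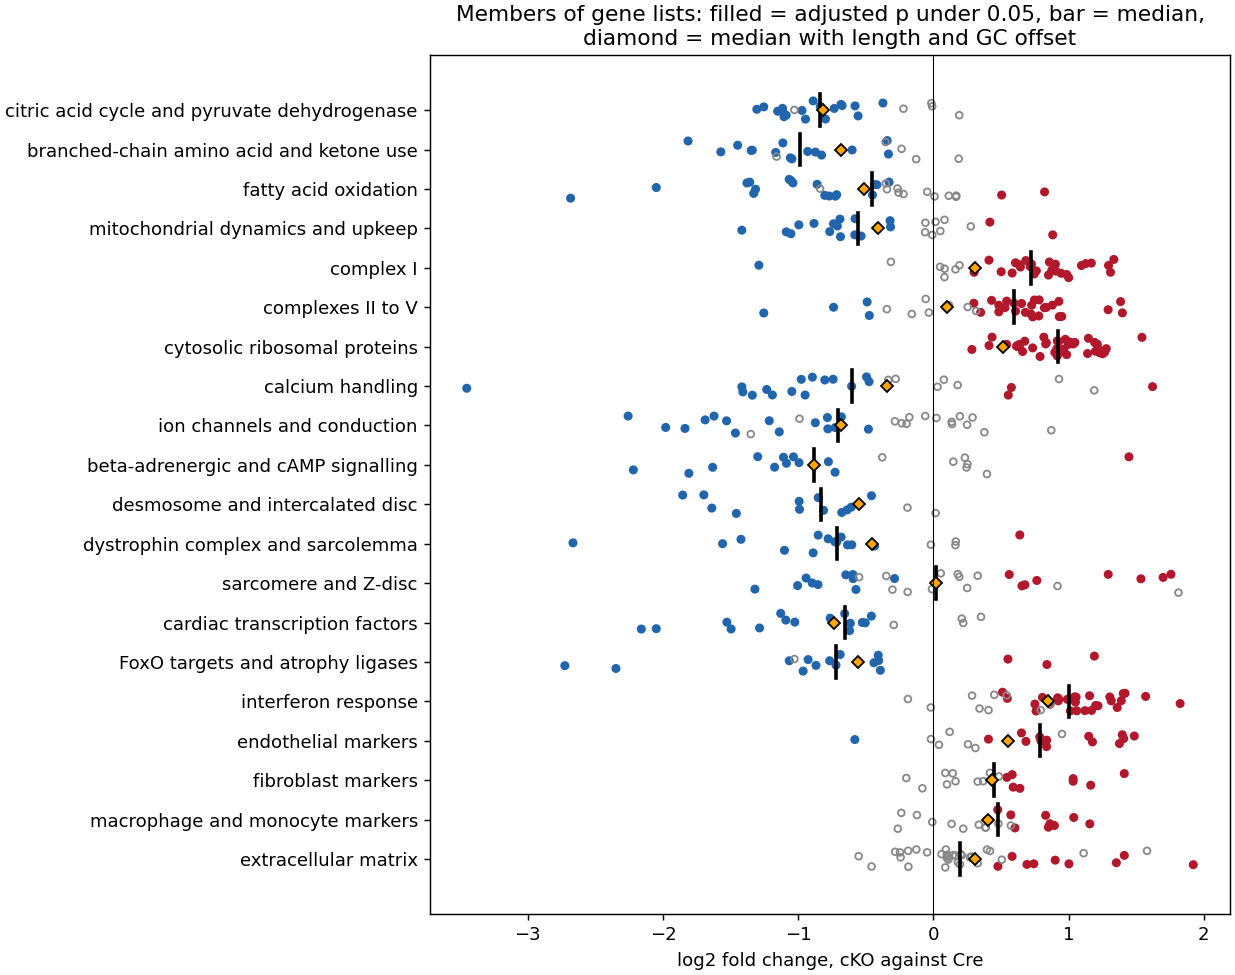
Log2 fold change of cKO against Cre for each tested member of 20 gene lists, with members called higher in red, called lower in blue and not called as open circles. Bars mark list medians and diamonds the medians with the length and GC offset, which lie close together for the citric acid cycle (-0.84 and -0.81) and apart for complexes II to V (0.60 and 0.10).

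Calcium handling genes fell in 15 of 25 cases and rose in 3 (median -0.60, -0.34 with the offset). Ryr2, the calcium release channel of the sarcoplasmic reticulum, was at 652, 594, 625 and 488 CPM in cKO and 1507 and 1639 CPM in Cre (log2 fold change -1.42, SE 0.13, adjusted p = 9.97e-05). Atp2a2, the pump that refills it, was at 6385, 4825, 5388 and 4113 CPM in cKO and 12567 and 13619 CPM in Cre (log2 fold change -1.34, SE 0.16, adjusted p = 0.000205), and Pln, which restrains that pump, at 3027, 2008, 2565 and 1870.3 CPM in cKO and 4696 and 5082 CPM in Cre (log2 fold change -1.05, SE 0.18, adjusted p = 0.000996). All cKO hearts were below both Cre hearts for the channel, the pump and its inhibitor, with replicate 4 the lowest in each. Trdn, Casq2 and Jph1, which hold the release unit together, fell by 1.19, 0.98 and 1.41 on the log2 scale. Cacna2d1, a subunit of the L-type channel, fell by 1.23 (-0.71 with the offset). Sln, the atrial inhibitor of the pump, was at 237, 533, 299 and 394 CPM in cKO and 156 and 81.1 CPM in Cre and rose (1.62, SE 0.39), a call that was lost without Cre replicate 2 (log2 1.19, adjusted p = 0.0708).

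Ion channels and conduction genes fell in 15 of 30 cases, with no rise. Kcnj2, the inward rectifier that sets the resting potential, was at 23.04, 15.5, 17.7 and 15.04 CPM in cKO and 52.2 and 57.3 CPM in Cre (log2 fold change -1.62, SE 0.15, adjusted p = 0.000101). Kcnd2, of the transient outward current, fell by 1.53, and Kcnj11 and Abcc9, the subunits of the ATP-sensitive potassium channel, by 1.98 and 1.69 on the log2 scale. Gja1, the ventricular gap junction protein connexin, was at 253, 184, 150.2 and 140.3 CPM in cKO and 554 and 449 CPM in Cre (log2 fold change -1.46, SE 0.21, adjusted p = 0.000598). Hcn4, the pacemaker channel, was at 1.68, 1.78, 2.61 and 2.36 CPM in cKO and 10.3 and 10.1 CPM in Cre (log2 fold change -2.26, SE 0.18, adjusted p = 9.96e-05), with no overlap between the groups.

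Among 18 genes of adrenergic and cAMP signalling, through which catecholamines raise the force of the beat, 11 fell and 1 rose (median -0.88, -0.88 with the offset). Adrb1, the main cardiac adrenergic receptor, fell by 1.03 and Adra1a by 2.22 on the log2 scale. Adcy5, an adenylyl cyclase, fell by 0.99, the kinase subunits Prkar1a by 1.09 and Prkar2a by 1.3, and the anchor Akap6 by 1.81. Pde3a, which breaks down cAMP near the pump, was at 41.3, 29.99, 34.8 and 28.03 CPM in cKO and 111 and 96.3 CPM in Cre (log2 fold change -1.63, SE 0.14, adjusted p = 9.96e-05). The gene that rose was Ppp1r1a, a phosphatase inhibitor, with a log2 fold change of 1.45, which was not called without Cre replicate 2 (log2 1.13, adjusted p = 0.112) or with the offset (log2 0.97, adjusted p = 0.0525).

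Structural genes of the cell border fell as well. Of 14 genes of the desmosome and intercalated disc, which couple cardiomyocytes end to end, 12 fell and none rose (10 fell with the offset). Cdh2, the cadherin of the disc, was at 131, 93.3, 113 and 83.3 CPM in cKO and 331 and 322 CPM in Cre (log2 fold change -1.64, SE 0.15, adjusted p = 0.000101). Dsp, the desmosomal linker, fell by 1.85, Ctnna3 by 1.70 and Vcl by 1.46 on the log2 scale, whereas Jup (-0.19) and Des (0.02) did not pass the test, Jup being called lower with the offset (-0.47, adjusted p = 0.0151). Of 17 genes of the dystrophin complex and sarcolemma 13 fell and 1 rose (11 and none with the offset). Dag1, the dystroglycan that binds the complex to the matrix, was at 165, 126, 173 and 152 CPM in cKO and 408 and 417 CPM in Cre (log2 fold change -1.42, SE 0.13, adjusted p = 9.97e-05), and Sntb1, a syntrophin, at 0.894, 0.741, 0.599 and 0.609 CPM in cKO and 4.101 and 4.91 CPM in Cre (log2 fold change -2.66, SE 0.25, adjusted p = 0.000103). Dmd itself fell by 0.85 and was not called with the offset (-0.36). Cav3, the muscle caveolin, rose by 0.64 (0.08 and not called with the offset), and was not called without Cre replicate 2 (log2 0.57, adjusted p = 0.0535).

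Sarcomere genes moved in both directions, 8 of 30 up and 10 down (4 and 10 with the offset). Over all genes 19.6% rose and 22.8% fell. Nebl, a Z-disc protein, was at 138, 125, 116 and 102 CPM in cKO and 286 and 314 CPM in Cre (log2 fold change -1.32, SE 0.12, adjusted p = 0.000101, -0.79 with the offset), and Xirp1, Mypn and Myom2 fell by 1.00, 0.94 and 0.85 on the log2 scale. Ttn, the giant spring of the sarcomere, fell by 0.65 and was not called with the offset (-0.37), without Cre replicate 2 (log2 -0.46, adjusted p = 0.238) or without cKO replicate 3 (log2 -0.61, adjusted p = 0.0706). Tcap, its Z-disc cap, was at 2644, 3412, 2554 and 2572 CPM in cKO and 798 and 1131 CPM in Cre (log2 fold change 1.54, SE 0.19, adjusted p = 0.000213, 0.71 with the offset). Tnni3 and Tnnc1, the adult troponins, rose by 0.77 and 0.66, values that the offset took to 0.13 and 0.00. The major adult myosin heavy chain Myh6 did not pass the test (log2 fold change -0.19, SE 0.15, adjusted p = 0.324).

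Of 23 tested genes, of 25, that are known for fetal, atrial or hypertrophic expression, 10 rose and 5 fell (7 and 3 with the offset), and 5 rose without Cre replicate 2. Nppa, the atrial natriuretic peptide, was at 2730.2, 6090.4, 4288 and 4610.4 CPM in cKO and 1880.5 and 1156 CPM in Cre (log2 fold change 1.54, SE 0.31, adjusted p = 0.00429, 0.89 with the offset). The fetal light chain Myl4 rose by 1.76, a call lost with no filter on low counts (adjusted p = 0.0663), and Timp1, an inhibitor of matrix proteases, by 1.92. With a block for the replicate number of the titles, Nppa and Myl4 were not called (adjusted p = 0.131 and 0.226). Other classical stress genes were spread too widely among hearts to pass the test in the main fit. Nppb was at 249, 326, 218 and 93.2 CPM in cKO and 126 and 133 CPM in Cre (log2 fold change 0.77, SE 0.45, adjusted p = 0.207), Acta1 at 1249, 1845, 918 and 340.3 CPM in cKO and 137 and 483 CPM in Cre (log2 fold change 1.81, SE 0.83, adjusted p = 0.136), and Myh7 at 249.7, 239, 125 and 52.7 CPM in cKO and 100.2 and 75.96 CPM in Cre (log2 fold change 0.92, SE 0.68, adjusted p = 0.324). Within cKO, replicate 4 was the lowest in these 3 genes and overlapped with the Cre hearts, while replicates 1 and 2 were above both. Nppb was called without cKO replicate 4 (log2 1.03, adjusted p = 0.00122). With the replicate block Nppb and Myh7 were called higher (adjusted p = 0.000402 and 0.000494), and Acta1 was not (adjusted p = 0.0954). Block and offset together also called Nppb and Myh7 (adjusted p = 0.00267 and 0.000971). Acta1 was called by DESeq2 (adjusted p = 0.0303), by limma voom (adjusted p = 0.0325) and in the fit without robust estimation (adjusted p = 0.0418). The list overlaps with atrial markers, of which 8 of 17 tested rose (4 without Cre replicate 2, 5 with the offset) and Hcn4 fell; their summed level was 5473 to 11501 CPM in cKO and 2388 and 3995 CPM in Cre. Of 10 ventricular markers 2 rose and 4 fell (none and 5 with the offset), against 19.6% and 22.8% of all genes. They summed to 16497 to 17666 CPM in cKO and 15048 and 16414 CPM in Cre. Whether the share of atrial tissue differed between the samples was not tested.

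Of 19 tested cardiac transcription factors, of 20, 15 fell and none rose (median -0.66, -0.73 with the offset). Gata4, which directs cardiomyocyte genes from the embryo onward, was at 72.4, 56.2, 56.6 and 48.6 CPM in cKO and 130.3 and 107 CPM in Cre (log2 fold change -1.02, SE 0.15, adjusted p = 0.000422). Tead1, the partner of the Hippo coactivators, was at 85.6, 83.2, 75.01 and 61.6 CPM in cKO and 201 and 229 CPM in Cre (log2 fold change -1.50, SE 0.13, adjusted p = 9.96e-05, -0.98 with the offset). Tbx20 fell by 1.28 (-0.76 with the offset), Prox1 by 2.16 and Myocd, a coactivator of muscle genes, by 1.53 on the log2 scale. The early cardiac regulators Nkx2-5 (0.22), Tbx5 (0.35) and Hand2 (0.21) did not pass the test. Nkx2-5 was called lower with the offset (log2 -0.29, adjusted p = 0.0446) and higher with upper-quartile scaling (log2 0.31, adjusted p = 0.0475), so its direction is not settled. Hand1 had at most 1 count in any library.

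**Figure D4:**
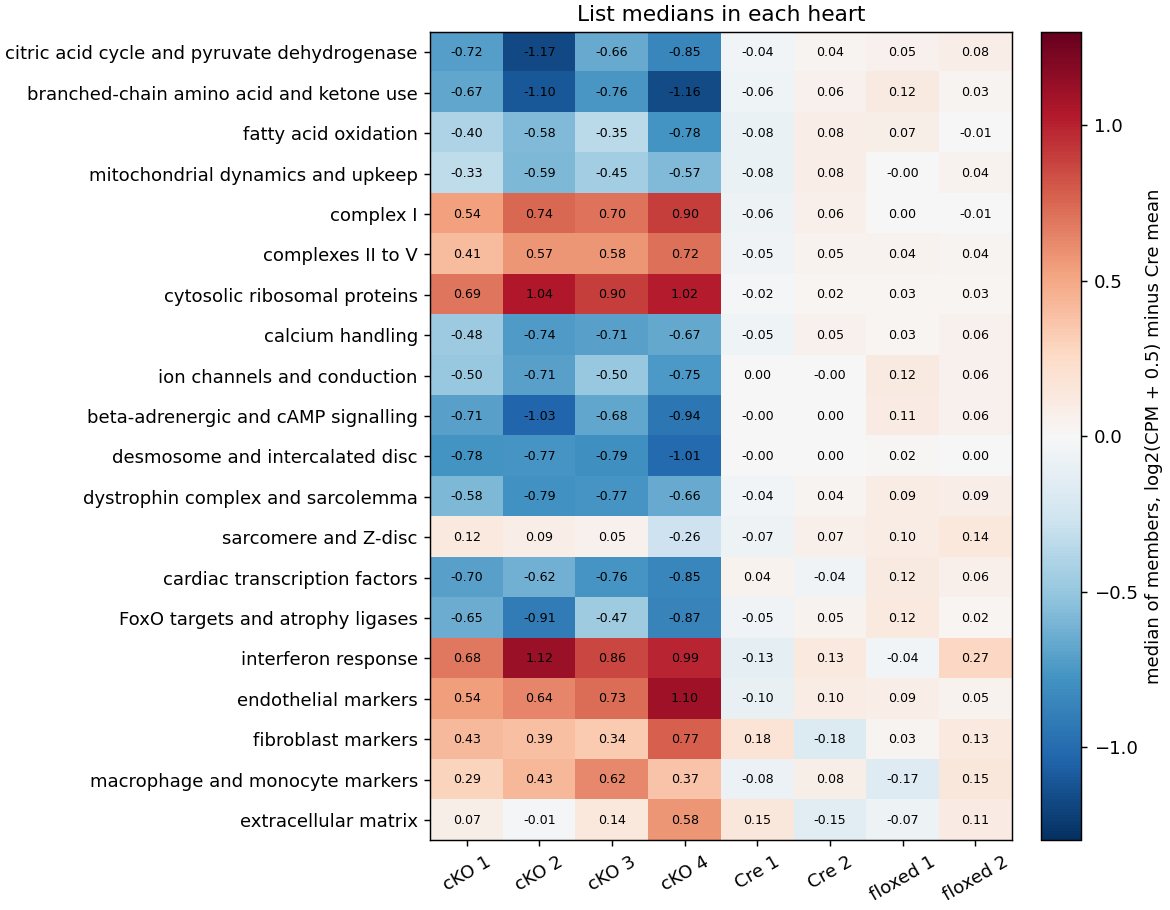
Median over the members of 20 lists in each heart, as log2(CPM + 0.5) minus the mean of the Cre hearts. The citric acid cycle list lies between -1.17 and -0.66 in the 4 cKO hearts and between -0.04 and 0.08 in the 4 others, and the interferon list between 0.68 and 1.12 in cKO and between -0.13 and 0.27 in the others.

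Immediate early genes, which respond to stimuli within minutes, also differed between the control genotypes. Of the 15 genes called between Cre and floxed hearts, 14 were lower in Cre (0.0916%) and 1 was higher (0.00654%), and 10 of the 15 are among the 24 genes of this list. Between cKO and Cre 7 of the 24 fell and 2 rose (11 fell without Cre replicate 2, and 9 fell and none rose with the offset). Over all genes 22.8% fell and 19.6% rose between cKO and Cre. Fosb, a subunit of the AP-1 factor, was at 0.789, 1.48, 1.11 and 1.07 CPM in cKO and 3.797 and 5.01 CPM in Cre but 52.9 and 95.5 CPM in floxed hearts. Btg2, which slows the cell cycle, was at 32.8, 27.4, 37.8 and 32.4 CPM in cKO and 65.4 and 59.02 CPM in Cre and 359.9 and 527 CPM in floxed hearts. Jun was at 61.7, 60.3, 56.4 and 46.7 CPM in cKO and 84.9 and 105 CPM in Cre and 337 and 377 CPM in floxed hearts. In all 3 the levels ran from cKO through Cre to floxed without overlap, so that cKO fell against Cre by 1.97, 0.93 and 0.76 on the log2 scale, and Cre lay below floxed by log2 differences of -4.08, -2.83 and -1.91. Fos was at 6.15, 4.89, 4.32 and 8.49 CPM in cKO and 40.97 and 15.03 CPM in Cre and 263 and 287 CPM in floxed hearts, and was not called between Cre and floxed (log2 -3.29, adjusted p = 0.156). The fall of Fos in cKO against Cre went from -2.23 to -1.32 without Cre replicate 1. Egr2 and Egr3 were not called without that heart (adjusted p = 0.297 and 0.257), and Egr2 also not without cKO replicate 2 or 3 (adjusted p = 0.0504 and 0.0506). The 2 rises were Ier2 (0.77) and Jund (0.43), both of them lost without Cre replicate 2 (adjusted p = 0.279 and 0.215), and with the offset (log2 0.12 and -0.04, the latter a change of sign). Ier2 was further lost without cKO replicate 2 or 4 or either floxed heart (adjusted p from 0.0538 to 0.076). The labels give no order or time of tissue collection.

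**Figure D5:**
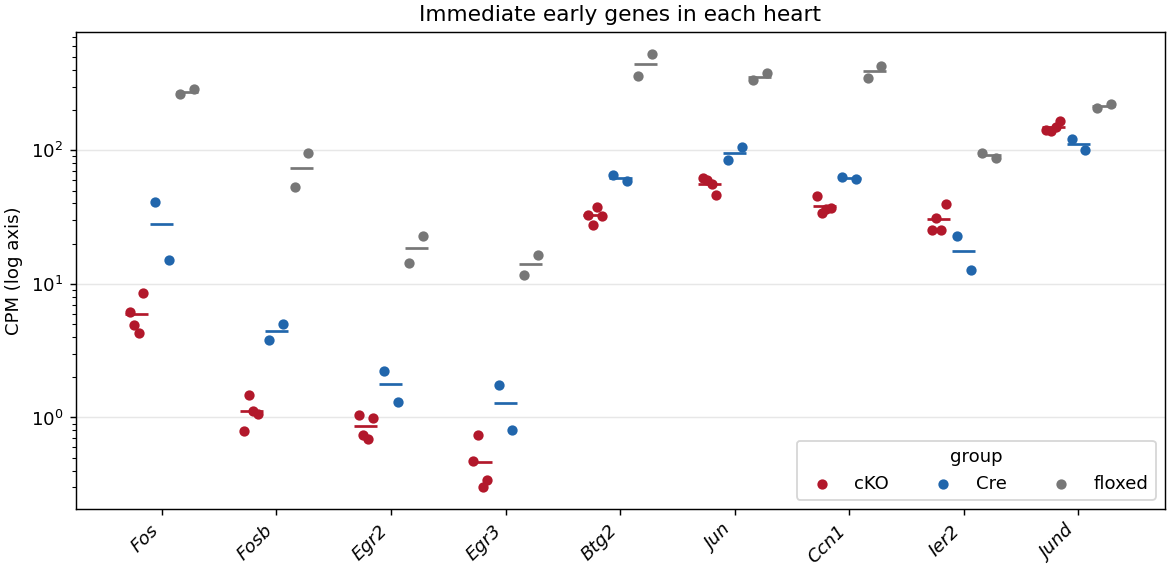
Levels of 9 immediate early genes in each heart (CPM, log axis), with a point per heart and a line at each group mean. The floxed hearts lie above the cKO and Cre hearts in each gene, and Fosb lies at 0.789 to 1.48 CPM in cKO, 3.797 and 5.01 in Cre and 52.9 and 95.5 in floxed hearts.

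Genes of the interferon response, by which cells answer viral nucleic acid and interferon, rose in 29 of 38 cases and none fell (median 1.00). With the offset 31 rose (median 0.85), and without Cre replicate 1 the count was 16. To show the element that interferon-activated factors bind, promoters of the list (RefSeq, GRCm38.p6, 250 bases before to 50 after the start) were searched on both strands for GAAANNGAA, the core of the interferon-stimulated response element. It was present in 16 of 29 promoters matched by symbol (55.2%), against 9.76% of all 27025 promoters. The 49-base stretches below run 5′ to 3′ along the gene, with 1 match in capitals. Further matches within the stretches of Oas1a, Gbp3 and Ifitm3 are left in lower case. The stretches were chosen after the values were seen to show promoters of genes that rose and, last, of 1 that was not called.
Oas1a (chr5:120907517-120907565, minus strand): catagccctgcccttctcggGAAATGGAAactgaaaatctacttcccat
Gbp3 (chr3:142559980-142560028, plus strand): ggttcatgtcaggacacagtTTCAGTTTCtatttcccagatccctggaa
Stat2 (chr10:128270257-128270305, plus strand): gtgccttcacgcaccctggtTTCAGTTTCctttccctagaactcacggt
Ifitm3 (chr7:141010714-141010762, minus strand): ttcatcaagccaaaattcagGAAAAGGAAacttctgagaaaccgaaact
B2m (chr2:122147528-122147576, plus strand): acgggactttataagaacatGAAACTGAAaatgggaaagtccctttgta
Gbp7 (chr3:142530264-142530312, plus strand): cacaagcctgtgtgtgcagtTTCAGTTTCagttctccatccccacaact
In Oas1a, Ifitm3 and B2m the match in capitals reads GAAANNGAA along the gene, and in Gbp3, Stat2 and Gbp7 it reads in the reverse complement. Of the 16 list members with a match 12 rose, of 13 without a match 11, and 6 of the 9 that no promoter was matched to.

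Oas1a, a sensor of double-stranded RNA, was at 4.31, 7.61, 5.31 and 7.62 CPM in cKO and 1.25 and 2.305 CPM in Cre (log2 fold change 1.83, SE 0.33, adjusted p = 0.00152). Gbp3, an interferon-induced GTPase, was at 20.6, 26.5, 19.6 and 19.1 CPM in cKO and 9.15 and 10.6 CPM in Cre (log2 fold change 1.12, SE 0.17, adjusted p = 0.000501), and Ifitm3, which blocks virus entry, at 96.4, 130.2, 120.1 and 162 CPM in cKO and 47.6 and 61.8 CPM in Cre (log2 fold change 1.22, SE 0.20, adjusted p = 0.00116, 0.61 with the offset). The groups did not overlap in any of these genes. Psmb8, a subunit of the immunoproteasome, was at 18.99, 27.6, 20.98 and 26.9 CPM in cKO and 9.04 and 10.1 CPM in Cre (log2 fold change 1.31, SE 0.19, adjusted p = 0.000411). Xaf1, an interferon-induced regulator of cell death, rose by 1.17 and Irf7, which amplifies the response, by 1.40. Stat2, which carries the interferon signal to the nucleus, rose by 1.01, but was not called without either Cre heart (adjusted p = 0.0925 and 0.0633). B2m, the light chain of class I antigen presentation, rose by 0.92 and was not called without Cre replicate 1 (log2 0.77, adjusted p = 0.055). Gbp7 (0.45, SE 0.25) did not pass the test, but was called with the offset (log2 0.84, adjusted p = 0.0152). The summed level of the list was 1277 to 1666 CPM in cKO and 711 and 846 CPM in Cre, and the summed level of macrophage markers, whose cells also express these genes, was 586 to 721 CPM in cKO and 391 and 459.7 CPM in Cre; the part of those cells in the rise was not tested.

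Promoters of the lists with falling genes were searched in the same way. TCAAGGTCA, the element of the estrogen-related receptors, was found in 0 of 20 matched promoters of the citric acid cycle list and 0 of 25 of the fatty acid list, against 0.466% of all promoters. A MEF2 element (CTATTTATA or CTAAAAATA) was found in 1 of 25 sarcomere promoters (Xirp2) and 1 of 17 calcium handling promoters (Casq2), against 1.08% of all. Elements this rare are seldom met in lists of this size, so these counts cannot tell the lists from other promoters.

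Many markers of non-muscle cells rose in cKO. Of 20 endothelial markers 13 rose and 1 fell (median 0.79, 7 rises without Cre replicate 1), and their summed level was 2892 to 4014 CPM in cKO and 1874 and 2277 CPM in Cre. Egfl7, secreted by endothelial cells, was at 143, 219, 157 and 241 CPM in cKO and 74.8 and 60.9 CPM in Cre (log2 fold change 1.49, SE 0.22, adjusted p = 0.000602). Eng and Sox17 rose by 0.80 and 1.38 on the log2 scale. The defining marker Pecam1 (0.12) did not pass the test. Kdr, the main VEGF receptor, was the marker that fell (-0.58), and it was not called without either Cre heart (adjusted p = 0.0735 and 0.06) or with the offset (log2 -0.26, adjusted p = 0.152).

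Of 18 fibroblast markers 8 rose and none fell (4 rose without Cre replicate 2), with sums of 3158 to 4080.1 CPM in cKO and 2098 and 2766 CPM in Cre. Pi16 was at 77.9, 81.4, 85.3 and 101 CPM in cKO and 46.1 and 38.3 CPM in Cre (log2 fold change 1.03, SE 0.13, adjusted p = 0.000253) and Vim, an intermediate filament of mesenchymal cells, rose by 1.16. The defining markers Pdgfra (-0.20) and Tcf21 (0.09) did not pass the test. Of 39 extracellular matrix genes 9 rose and none fell, and 2 rose without Cre replicate 2. Timp1 was at 3.58, 6.72, 4.28 and 7.73 CPM in cKO and 1.44 and 1.503 CPM in Cre (log2 fold change 1.92, SE 0.34, adjusted p = 0.00136), Tgfb1 rose by 1.00, and the main fibrillar collagens Col1a1 (0.42) and Col3a1 (0.10) did not pass the test. Of 20 macrophage markers 9 rose and none fell (4 and 5 without Cre replicates 1 and 2). C1qa, of the complement system, was at 59.3, 81.7, 73.7 and 92.01 CPM in cKO and 31.2 and 37.7 CPM in Cre (log2 fold change 1.16, SE 0.17, adjusted p = 0.000444, 0.43 with the offset), and Adgre1 (-0.24) and Mrc1 (-0.26) did not pass the test. Smooth muscle and pericyte markers summed to 2285 to 2730.1 CPM in cKO and 2595 and 2834 CPM in Cre, with 2 of 15 rising and 1 falling (1 and 1 with the offset). None of the 7 erythroid or 10 adipocyte markers tested was called. Of 10 tested glial and neural markers 2 rose, summing to 42.5 to 52.1 CPM in cKO and 28.96 and 34.7 CPM in Cre. Over all genes 19.6% rose and 22.8% fell, and the rises in the matrix list and in the glial list were close to that share.

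Genes of the list of FoxO targets and atrophy ligases fell in 13 of 17 cases and rose in 3. The falls were fewer when 1 Cre heart was left out, and numbered 8 with library size alone as the scale. Besides Irs1, Insr, the receptor, fell by 0.96 on the log2 scale (-0.45 with the offset). The muscle ubiquitin ligases Fbxo32 and Fbxo30 fell by 1.07 and 0.93 (-0.59 and -0.58 with the offset). Fbxl22, a Z-disc ligase, was at 121, 153, 133 and 185 CPM in cKO and 68.9 and 60.7 CPM in Cre and rose (log2 fold change 1.19, SE 0.17, adjusted p = 0.000413). Of 33 genes of the unfolded protein response and chaperones 14 fell and 2 rose (14 and none with the offset). Hspa5, the chaperone of the endoplasmic reticulum, was at 244, 186, 190.4 and 208 CPM in cKO and 414 and 461 CPM in Cre (log2 fold change -1.08, SE 0.13, adjusted p = 0.0002), and its sensor Atf6 fell by 1.39 (-0.90 with the offset). In the integrated stress response 7 of 21 tested genes rose and 2 fell (3 rose without Cre replicate 2, and 3 with the offset). Ddit3, which encodes CHOP, was at 28.1, 36.9, 21.6 and 33.2 CPM in cKO and 11.4 and 12.9 CPM in Cre (log2 fold change 1.3, SE 0.20, adjusted p = 0.000649), whereas the hormone Gdf15 did not pass the test (0.80, SE 0.43).

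Of 22 p53 and DNA damage genes 6 rose and 7 fell, and 2 and 3 with the offset. Over all genes 19.6% rose and 22.8% fell. Ccng1, a p53 target, was at 356, 285, 359 and 292 CPM in cKO and 719 and 834 CPM in Cre (log2 fold change -1.27, SE 0.13, adjusted p = 0.000117). The targets Cdkn1a (0.01, SE 0.50) and Mdm2 (-0.13, SE 0.12) did not pass the test. Without Cre replicate 1 the list had 2 rises and 3 falls, and without Cre replicate 2 it had 3 and 3. Of 15 tested genes of metal and iron handling, of 16, 5 rose and 5 fell. Ftl1, the ferritin light chain, was at 466, 546, 523 and 544 CPM in cKO and 202 and 214 CPM in Cre (log2 fold change 1.32, SE 0.12, adjusted p = 9.96e-05, 0.64 with the offset). Tfrc, which imports iron, fell by 1.15, and by 0.55 without Cre replicate 1. Of 19 clock genes 5 rose and 6 fell, against 19.6% and 22.8% of all genes. The rises numbered 3 with no filter on low counts, with only the cKO and Cre libraries, and without cKO replicate 2, 3 or 4. With a block for the replicate number of the titles the falls numbered 3. Arntl, the core activator, was at 0.368, 0.988, 0.942 and 1.49 CPM in cKO and 9.61 and 2.305 CPM in Cre, and was not called without Cre replicate 1 (log2 -1.26, adjusted p = 0.11). Clock, its partner, was at 17.3, 16.3, 16.3 and 17.1 CPM in cKO and 40.8 and 36.5 CPM in Cre (log2 fold change -1.21, SE 0.10, adjusted p = 9.96e-05, -0.66 with the offset). Tef, a clock output factor, rose by 0.88. The guidance genes Ntn1 and Slit3 had log2 fold changes of -0.77 (adjusted p = 0.00282) and -0.33 (adjusted p = 0.163), the latter called without Cre replicate 2 (log2 -0.69, adjusted p = 0.00918).

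The Cre hearts lack the floxed Elmsan1 allele, and the genes around it were counted separately. Within 5 Mb of Elmsan1 98 other genes were tested, of which 14 rose and 36 fell (51.0%, against 42.4% of all genes). Between Cre and floxed hearts, which also differ by the floxed allele, 0 of the 98 were called, against 0.0981% of all genes. At that share a count of 0 among 98 genes is not informative. Aldh6a1 and Fos, described above, are among the 98. Whether the allele itself bears on its neighbours was not tested. Within 1 Mb 6 of 37 rose and 13 fell (51.4%, against 42.4% of all genes).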

How the data were processed

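Whole-heart RNA of 8 mice was sequenced from NEBNext Ultra libraries, per the labels' protocols. The authors deposited a table of expected counts for 45706 genes; builds mm10 and GRCm38, STAR 2.5.1b and DESeq2 stand in the submitters' processing notes. The sources used here do not give the counting program, annotation or strand setting, so overlapping and duplicated genes are uncertain. Counts were rounded. Genes passing filterByExpr (15289) were scaled by TMM and tested with edgeR 4.0.16 (robust quasi-likelihood fit of 8 libraries, 3 group means, 5 residual degrees of freedom; Benjamini-Hochberg adjusted p under 0.05). SE came from the test statistic. Symbols, positions and lengths are from GENCODE M21; symbols matched all but 73 genes tested. The offset was smooth in log2 length and GC content of the longest transcript (99.5% of genes tested).

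Groups came from the genotype labels, and p-values reflect only the spread among these 8 hearts. The 48 lists (982 genes, 952 tested) and the members described were chosen with earlier results of these data known. Named genes are Elmsan1, preset genes, the 12 largest rises and falls (mean of at least 1 CPM, groups not overlapping) and up to 3 called members per list and direction; 12 rises and 8 falls with predicted or protocadherin names were passed over, and a few genes that meet the rule are not reported here. Other genes were named after their values were seen. Alternatives were other scalings, tools (DESeq2 1.42.0, limma 3.58.1 voom), filters and fits, and leaving out each library. The procedure was tested on simulated data.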

Additional observations from a re-analysis of the deposited data

Results flagged for a closer look

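Among 184 genes and library measures examined, 7 had 1 cKO heart set apart from the other 3, judged by its gap to the nearest of them over the range of the 4 (log2(CPM + 0.5) for genes). The limit was Dixon's 95% critical value for 4 samples, which chance passes in about 1 of 20 groups. The lowest heart stood apart in Fbxo32 (gap 0.937 of the range), Myh6 (0.931), Elmsan1 (0.921) and Xirp1 (0.907). The highest heart stood apart in Tcap (0.88), Gys1 (0.844) and the mitochondrial share of counts (0.923). For Elmsan1 and Myh6 the lowest heart was cKO replicate 4. For Tcap and the mitochondrial share the highest was cKO replicate 2, and for Gys1 it was cKO replicate 3.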

How the results depend on the processing

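The fall of Elmsan1 was called under every alternative run, with log2 fold changes of -1.02 to -0.80 when 1 library was left out. The number of rises ranged from 1460 to 3082 and of falls from 2469 to 3852 over the same left-out libraries, and both were lowest without Cre replicate 2. Requiring an absolute log2 fold change of at least 1 left 969 rises and 855 falls. The replicate numbers of the titles give only 2 pairs across the groups, and same-numbered hearts did not deviate together (r of -0.105 and -0.00613). The deviations of the 2 Cre hearts from their mean mirror each other, so these values cannot tell whether same-numbered hearts share a litter or a collection. A replicate block gave 2368 rises and 2917 falls, and with the length and GC offset 1799 and 2227. Of 181 genes named in the text and tested, 149 were called. Block and offset together lost 24 of these calls, the block alone 16, the offset alone 15 and the fit with no filter on low counts 9. The other scalings, tools and filters lost at most 4 each. Jund reversed with the offset (log2 -0.0434) and with block and offset (log2 -0.0588). Without Cre replicate 1 there were 14 calls lost and without Cre replicate 2 there were 18. Beyond these the cause was not tested. With 2 Cre hearts, spread within that group is estimated mainly from the other groups, and a lone Cre heart is assumed to vary like them.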
